A study of Homo sapiens with 6 samples.

Results

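The proteasome and immunoproteasome subunits were taken as every gene whose symbol in the deposited tables is PSMA, PSMB, PSMC, PSMD, PSME, PSMF or PSMG followed by digits alone. The tables named 48 such genes among 56584 gene symbols. They comprise 34 genes grouped by symbol as constitutive core and cap subunits (PSMA1 to PSMA7, PSMB1 to PSMB7, PSMC1 to PSMC6 and PSMD1 to PSMD14). PSMD5, PSMD9 and PSMD10 are in that group by symbol, although they are known as assembly factors of the cap. Next come 3 immunoproteasome catalytic subunits (PSMB8, PSMB9 and PSMB10) and the 2 chains of the PA28 activator (PSME1 and PSME2). The rest are 2 core subunits of restricted tissues, 2 other activators, 1 inhibitor and 4 assembly chaperones (PSMG1 to PSMG4). Of the 48 genes, 18 were merged into a row that names a second protein-coding gene in at least 1 library, 1 of those (PSME3) also had a row of failed status, and 1 (PSMB11) was listed at 0 throughout. The other 29 entered the test of 11574 genes. The 18 were followed as sums over the genes that shared a row, except PSME3.

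LY19Y646F cells carry a construct that expresses the EZH2-Y646F mutant constitutively under a CMV promoter, and LY19WT cells are labelled EZH2 wild type. Both are human B-cell lymphoma lines, kept in RPMI medium with fetal serum and sampled untreated at passages 10 to 15. EZH2 supplies the histone methyltransferase activity of the Polycomb repressive complex PRC2. Each line gave 3 polyadenylated RNA libraries, and the comparison asks how RNA levels in LY19Y646F differ from those in LY19WT. The labels do not say whether the LY19Y646F cells are a clone or a pool, how much native EZH2 remains in them, or whether the 3 libraries of a line came from separate cultures. The p-values therefore measure the spread between these libraries, which may be technical.

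The proteasome degrades proteins tagged with ubiquitin. Its barrel-shaped core stacks rings of alpha subunits, which form the gate, on rings of beta subunits, a few of which carry the proteolytic sites; the cap recognises, unfolds and feeds in the substrate. Interferon-gamma induces PSMB8, PSMB9 and PSMB10, which replace the catalytic subunits PSMB5, PSMB6 and PSMB7 in newly built cores, and PSME1 and PSME2, which form the PA28 ring on the core. The immunoproteasome is abundant in cells of the immune system, B cells included, and produces peptides suited to presentation on class I molecules.

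Promoter sequences are shown for the 4 inducible genes whose rows or sums gave values in all 6 libraries, since interferon acts on them through short elements near the start site. Each is the RefSeq window on GRCh38.p14 from 250 bases before to 50 bases after the annotated start, written in the direction of transcription. Capitals mark matches to the interferon-stimulated response element core, a pair of GAAA blocks set 2 bases apart, or to TGACNNNGC, the core of an antioxidant response element, on either strand. TTCNNNGAA, the core of a gamma-activated site, was also searched and had no match in these windows. PSME1 lies at chr14:24135944-24136243 on the plus strand, PSME2 at chr14:24146561-24146860 on the minus strand, PSMB10 at chr16:67936801-67937100 on the minus strand and PSMB8 at chr6:32844630-32844929 on the minus strand.
PSME1: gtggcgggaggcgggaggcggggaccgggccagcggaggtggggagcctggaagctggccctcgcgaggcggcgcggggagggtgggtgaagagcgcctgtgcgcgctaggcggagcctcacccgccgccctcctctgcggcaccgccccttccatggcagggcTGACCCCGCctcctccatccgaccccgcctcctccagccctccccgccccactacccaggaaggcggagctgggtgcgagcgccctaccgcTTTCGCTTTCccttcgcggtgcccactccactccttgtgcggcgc
PSME2: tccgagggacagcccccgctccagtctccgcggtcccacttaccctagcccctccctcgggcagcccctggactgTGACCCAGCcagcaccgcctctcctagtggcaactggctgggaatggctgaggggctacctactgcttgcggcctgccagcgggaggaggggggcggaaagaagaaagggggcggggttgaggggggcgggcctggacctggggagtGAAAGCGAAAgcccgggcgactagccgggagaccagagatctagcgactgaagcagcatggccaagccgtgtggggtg
PSMB10: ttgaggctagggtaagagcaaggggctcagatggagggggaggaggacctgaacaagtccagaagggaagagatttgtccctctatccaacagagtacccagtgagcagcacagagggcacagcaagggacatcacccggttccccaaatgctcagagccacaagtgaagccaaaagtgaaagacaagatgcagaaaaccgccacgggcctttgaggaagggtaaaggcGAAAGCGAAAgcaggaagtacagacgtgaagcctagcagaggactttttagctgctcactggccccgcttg
PSMB8: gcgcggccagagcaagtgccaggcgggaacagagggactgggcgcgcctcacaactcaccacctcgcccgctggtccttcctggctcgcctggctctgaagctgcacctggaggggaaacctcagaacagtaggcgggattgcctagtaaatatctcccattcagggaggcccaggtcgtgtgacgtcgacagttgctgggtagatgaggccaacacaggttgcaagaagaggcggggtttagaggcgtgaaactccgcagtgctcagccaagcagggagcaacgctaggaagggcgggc
PSME1, PSME2 and PSMB10 each held 1 match to the interferon-stimulated element core, beginning 6 bases after, 28 bases before and 21 bases before the start. The PSMB8 window held no match to any of these letters.

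Several facts of the whole series stand beside every result below. EZH2 was at 70.2, 80.4 and 93.5 FPKM in LY19Y646F and 60.6, 76.5 and 74.7 FPKM in LY19WT, which in log2(FPKM + 1) units differ by 0.20 (SE 0.15, limma adjusted p = 0.387), and the tables do not separate mutant from native transcripts. The lines also differed in B-cell genes. Rows naming IGKC, the immunoglobulin kappa constant gene, summed to 4908, 4838 and 4283 FPKM in LY19Y646F and 54.3, 45.5 and 39.4 FPKM in LY19WT. The 7 B-cell markers summed to 587 to 940 FPKM in LY19Y646F and 397 to 590 FPKM in LY19WT, but single markers went both ways. MS4A1, which encodes CD20, stood at 83.1 to 118 FPKM in LY19Y646F and 0.0688 to 0.140 FPKM in LY19WT, in a row that names another coding gene in some libraries. The B-lineage transcription factors were lower, EBF1 at 4.89 to 5.61 FPKM in LY19Y646F and 42.5 to 44.6 FPKM in LY19WT, and PAX5 at 22.3 to 35.2 FPKM in LY19Y646F and 85.7 to 118 FPKM in LY19WT, although PAX5 also had a row of failed status. Epithelial or stromal markers summed to at most 0.201 FPKM in LY19Y646F and 0.108 FPKM in LY19WT, and erythroid markers to at most 0.0834 FPKM in LY19Y646F and 0.328 FPKM in LY19WT. Myeloid markers summed to 0.374 to 0.723 FPKM in LY19Y646F and 11.4 to 13.9 FPKM in LY19WT, where LYZ made up most of the sum, and T-cell markers summed to 13.9 to 16.7 FPKM in LY19Y646F and 12.7 to 15.6 FPKM in LY19WT, most of it a shared row naming TRAC. CD3D, CD3E and CD3G stood at 1.06 FPKM or less in LY19Y646F and were listed at 0 in LY19WT. The labels do not say whether both lines descend from the same parent cells. The construct and any other difference between the lines, these included, cannot be told apart in the results below.

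Among the inducible genes, the PA28 chains and the summed PSMB8 and TAP1 locus fell in LY19Y646F, while the constitutive catalytic subunits PSMB5 and PSMB6 were not called and PSMB7 rose. PSME1, the alpha chain of PA28, was at 103, 55.9 and 52.8 FPKM in LY19Y646F and 407, 233 and 251 FPKM in LY19WT. Every LY19Y646F library lay below every LY19WT library; in RNA from whole cultures, fewer expressing cells and less RNA per cell cannot be told apart. The means were 70.5 ± 27.9 FPKM in LY19Y646F and 297 ± 95.6 FPKM in LY19WT (SD, n = 3 each), a ratio of 0.238. The limma log2 difference was -2.08 (SE 0.35, adjusted p = 0.00801, Benjamini-Hochberg over all tested genes). The row, on hg19 chromosome 14 from 24605367 to 24609653, also names a clone-based transcript that the annotation used here does not list as protein-coding. PSME2, the beta chain of PA28 and a close neighbour of PSME1 (hg19 chromosome 14, 24612574 to 24616779), was at 189, 262 and 161 FPKM in LY19Y646F and 522, 450 and 472 FPKM in LY19WT, again without overlap. Its means were 204 ± 52.0 FPKM in LY19Y646F and 481 ± 37.2 FPKM in LY19WT (SD, n = 3 each), a ratio of 0.424, with a limma log2 difference of -1.26 (SE 0.20, adjusted p = 0.00631). Calls for both chains held under each alternative run, with adjusted p up to 0.0364 for PSME1 and 0.0291 for PSME2. Their ratio within a library, PSME1 over PSME2, was 0.543, 0.214 and 0.328 in LY19Y646F and 0.778, 0.517 and 0.531 in LY19WT, so the 2 sets of ratios overlapped. Called genes made up 32.4% of all 11574 tested, 16.3% higher and 16.1% lower in LY19Y646F. The libraries of the lines did not overlap for 48.1% of tested genes.

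PSMB8, the inducible counterpart of PSMB5, could not be read on the same footing in both lines. In the 3 LY19Y646F libraries it had a row of its own at 44.7, 41.8 and 32.0 FPKM (hg19 chromosome 6, 32808494 to 32812480). In the 3 LY19WT libraries its row was merged with TAP1, the peptide transporter encoded next to it, and held 240, 235 and 225 FPKM over 32808494 to 32821755. TAP1 had a separate row in LY19Y646F at 9.11, 5.30 and 7.18 FPKM. Summed over both genes, the locus was at 53.8, 47.1 and 39.1 FPKM in LY19Y646F and 240, 235 and 225 FPKM in LY19WT. The sum fell by 2.31 on the log2 scale (SE 0.13, limma adjusted p = 0.000187), a ratio of means of 0.200, and the call held under every alternative run for it. Among summed loci and unmerged genes, 31.7% of 12937 were called and 15.8% were lower in LY19Y646F. How the LY19WT total divides between PSMB8 and TAP1 cannot be told from these tables; counting the merged row for PSMB8 alone gave -2.55 (SE 0.15, limma adjusted p = 0.000275), in a fit that called 26.2% of 17320 genes.

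PSMB9, the inducible counterpart of PSMB6, was listed at 0 in all 3 LY19Y646F libraries and at 105, 0 and 0 FPKM in LY19WT. Its row, on hg19 chromosome 6 from 32811863 to 32827362, carries the name of an antisense RNA as well and overlaps TAP1. Such a listing at 0 also occurred for PSMC5, a cap ATPase that growing cells need, so a 0 is not read here as absence of the RNA. PSMB9 therefore gives no direction. PSMB10, the inducible counterpart of PSMB7, shared a row with CTRL, a chymotrypsin-like protease gene, in all 6 libraries. That row held 70.4, 7.17 and 1.55 FPKM in LY19Y646F and 85.4, 11.4 and 11.2 FPKM in LY19WT. The library numbered 1 stood far above the others in both lines, and the lines overlapped. The difference of -1.05 (SE 1.47) had a limma adjusted p of 0.627 and a 95% interval from -4.76 to 2.67, and it changed sign to 0.04 without LY19Y646F replicate 3.

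**Figure D1:**
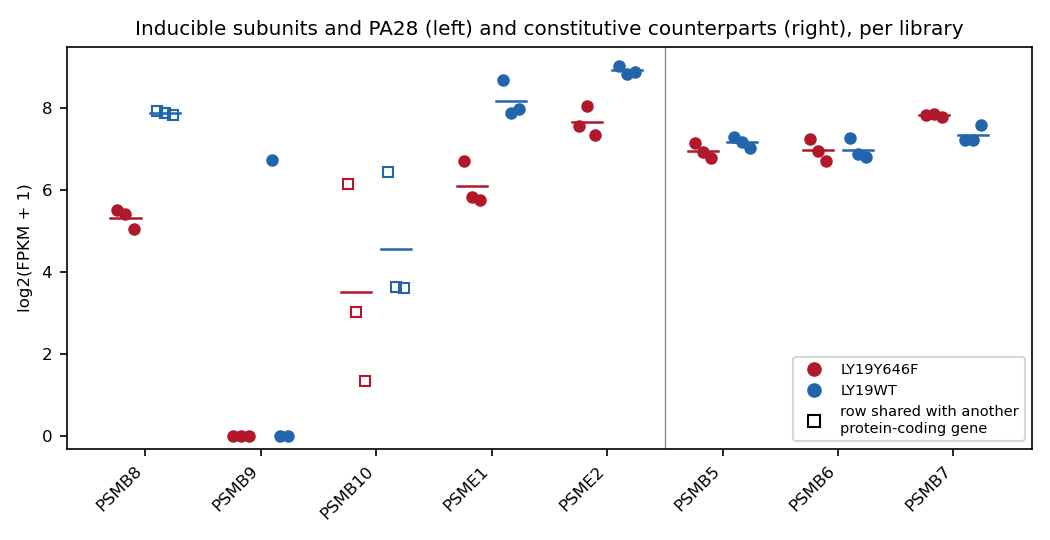
Level of each inducible subunit, PA28 chain and constitutive catalytic counterpart as log2(FPKM + 1), with 1 point per library, LY19Y646F left of LY19WT, lines at the mean of 3 libraries (none for PSMB9) and open squares for rows shared with another protein-coding gene. PSME1 and PSME2 lie lower in every LY19Y646F library, PSMB5 and PSMB6 overlap between the lines, and PSMB9 is listed at 0 in 5 of 6 libraries.

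Of the constitutive catalytic subunits, PSMB5 and PSMB6 were not called and PSMB7 rose. PSMB5, with chymotrypsin-like activity, was at 141, 120 and 109 FPKM in LY19Y646F and 155, 143 and 129 FPKM in LY19WT, a difference of -0.21 (SE 0.13, limma adjusted p = 0.286, 95% interval -0.54 to 0.12). PSMB6, with caspase-like activity, was at 151, 122 and 104 FPKM in LY19Y646F and 153, 116 and 110 FPKM in LY19WT, a difference of -0.01 (SE 0.20, limma adjusted p = 0.976, 95% interval -0.50 to 0.48). The PSMB5 row also names, in all 6 libraries, a clone-based transcript that the annotation used here does not list as protein-coding. For both genes the lines overlapped, and these intervals do not reach the size of the PSME1 or PSME2 change. PSMB7, with trypsin-like activity, was at 226, 230 and 220 FPKM in LY19Y646F and 149, 147 and 190 FPKM in LY19WT. The lines did not overlap, and PSMB7 rose by 0.48 (SE 0.12, limma adjusted p = 0.0347). Its row carries a second, clone-based name in all 3 LY19Y646F libraries and in LY19WT replicate 3, the highest of the LY19WT libraries. The annotation used here does not list that name as protein-coding. Dropping any library except LY19WT replicate 3 ended the call, with limma adjusted p of 0.0903 without LY19WT replicate 1, 0.104 without LY19WT replicate 2, and 0.0689, 0.105 and 0.0840 without LY19Y646F replicates 1, 2 and 3.

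Ratios within a library do not depend on how that library was scaled. PSMB8 over PSMB5 was 0.318, 0.348 and 0.294 in LY19Y646F. In LY19WT, with TAP1 inside the row, it was 1.55, 1.64 and 1.74. With TAP1 added to PSMB8 in every library the LY19Y646F ratios became 0.382, 0.392 and 0.361. The difference in mean log2 ratio, with 1 FPKM added to both genes, was -2.33 without and -2.10 with that addition. Each had an exact two-sided permutation p of 0.10, the smallest that 3 libraries against 3 can give, and the first had an adjusted p of 0.20 over the 2 pairs tested. PSMB10 over PSMB7, with CTRL in the row, was 0.312, 0.0312 and 0.00705 in LY19Y646F and 0.573, 0.0771 and 0.0589 in LY19WT, a difference of -1.52 with an exact permutation p of 0.40 (adjusted 0.40). That difference was -2.85, -1.27 and -0.46 without LY19Y646F replicates 1, 2 and 3, and -0.53, -1.92 and -2.12 without LY19WT replicates 1, 2 and 3. No ratio of PSMB9 to PSMB6 is given because PSMB9 was listed at 0.

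**Figure D2:**
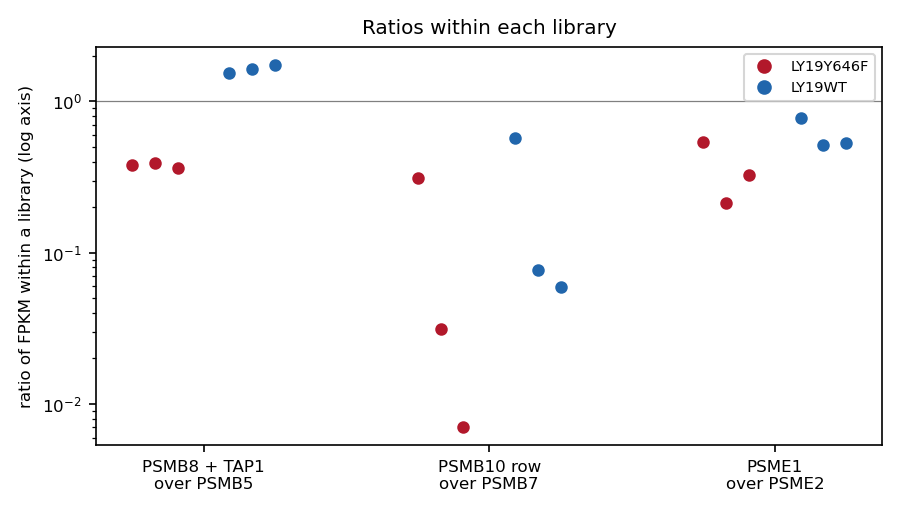
Ratio of FPKM within each library on a log axis for PSMB8 with TAP1 over PSMB5, the PSMB10 row over PSMB7, and PSME1 over PSME2, with 1 point per library and LY19Y646F left of LY19WT. The first ratio lies between 0.361 and 0.392 in LY19Y646F and between 1.55 and 1.74 in LY19WT, while the other ratios overlap between the lines.

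Across the 34 genes grouped as constitutive core and cap subunits, 21 could be tested, PSMD10 among them. Of these, 2 rose, 2 fell and 17 were not called. That is 4 of 21 called, against 32.4% of all tested genes. Their median difference was 0.06, against -0.02 over all tested genes, and the median size of their change was 0.32 on the log2 scale, against 0.65 over all tested genes. Changes smaller than 1 log2 unit were found for 20 of the 21, PSMA5 being the exception, and for 67.0% of all tested genes. The 95% interval lay within 1 log2 unit of 0 for 16 of the 21. Of the 21, 7 lay higher in LY19Y646F without overlap and 5 lower, against 24.2% and 23.8% of all tested genes. The summed FPKM of the 21 genes was 3536, 3679 and 3520 in LY19Y646F and 3667, 3141 and 3207 in LY19WT, with the lines overlapping. That overlap covers the tested genes only. Left out are 13 genes of the group, among them PSMA2, PSMA4 and PSMA6, whose sums with row partners were called lower. The sum of PSMD2 with its row partners, also left out, was called higher. PSMD2 in rows of its own overlapped between the lines, as given below. The sum of PSME1 and PSME2 was 292, 318 and 214 FPKM in LY19Y646F and 929, 683 and 722 FPKM in LY19WT, with no overlap. The constitutive counts moved with single libraries: 5 rose without LY19Y646F replicate 1, 1 rose without LY19Y646F replicate 2, LY19Y646F replicate 3, LY19WT replicate 1 or LY19WT replicate 2, 0 fell without LY19Y646F replicate 2, LY19WT replicate 2 or LY19WT replicate 3, and 1 fell without LY19Y646F replicate 3 or LY19WT replicate 1.

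In the alpha ring, 3 of 7 subunits (PSMA3, PSMA5 and PSMA7) could be tested on their own and none was called, with levels between 163 and 643 FPKM. PSMA5 varied most. It was at 190, 606 and 643 FPKM in LY19Y646F and 166, 172 and 163 FPKM in LY19WT. LY19Y646F replicate 1 lay near the LY19WT libraries and the other 2 lay far above, so the difference of 1.33 had an SE of 0.50 and a limma adjusted p of 0.104. Without LY19Y646F replicate 1 it was 1.90, with an adjusted p of 0.000350. PSMA3 differed by -0.40 (limma adjusted p = 0.137), and was called without LY19Y646F replicate 3 (-0.57, adjusted p = 0.0175). PSMA7 differed by 0.57 (limma adjusted p = 0.241). The remaining alpha subunits shared rows, and 3 of their 4 sums fell. PSMA6 with KIAA0391 was at 395, 479 and 537 FPKM in LY19Y646F and 758, 851 and 880 FPKM in LY19WT, a difference of -0.83 (SE 0.14, limma adjusted p = 0.00858). PSMA2 with C7orf25 was at 278, 331 and 293 FPKM in LY19Y646F and 444, 520 and 559 FPKM in LY19WT, a difference of -0.75 (SE 0.12, limma adjusted p = 0.00807). PSMA4 with CHRNA5 was at 180, 208 and 207 FPKM in LY19Y646F and 278, 354 and 326 FPKM in LY19WT, a difference of -0.68 (SE 0.12, limma adjusted p = 0.0114). In each of these 3 sums all LY19Y646F libraries lay below all LY19WT libraries, as they did for 23.8% of the 12937 summed loci and unmerged genes. The share of the partner gene in a merged row is not known; PSMA4 alone had a row of its own in 5 libraries, at 177, 202 and 202 FPKM in LY19Y646F and 258 and 330 FPKM in LY19WT replicates 1 and 2. PSMA1 with COPB1 differed by 0.12 (limma adjusted p = 0.476).

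Of the 4 structural beta subunits, which carry no proteolytic site, PSMB1 and PSMB4 fell and PSMB2 and PSMB3 were not called. PSMB1 was at 251, 231 and 220 FPKM in LY19Y646F and 337, 299 and 298 FPKM in LY19WT. PSMB4 was at 196, 150 and 128 FPKM in LY19Y646F and 317, 239 and 230 FPKM in LY19WT. For both genes the lines did not overlap. PSMB1 differed by -0.41 (SE 0.09, limma adjusted p = 0.0240) and PSMB4 by -0.73 (SE 0.21, limma adjusted p = 0.0489). Neither call held when any library other than LY19Y646F replicate 1 was left out: the limma adjusted p then lay between 0.0520 and 0.0787 for PSMB1 and between 0.0850 and 0.138 for PSMB4. PSMB4 was also not called without the filter on low values, with merged rows counted for every gene or among locus sums (limma adjusted p of 0.0776, 0.0622 and 0.0502). PSMB2 and PSMB3 differed by 0.06 and 0.07, with limma adjusted p of 0.741 and 0.873, and PSMB2 changed sign under quantile scaling.

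Among the 6 cap ATPases, the ring that unfolds the substrate, 3 were tested and none was called. PSMC1 was at 71.3, 67.9 and 65.5 FPKM in LY19Y646F and 77.7, 85.0 and 93.7 FPKM in LY19WT, without overlap, a difference of -0.32 (SE 0.10, limma adjusted p = 0.0660) that was called without LY19WT replicate 1 (adjusted p = 0.0412). PSMC3 differed by -0.11 and PSMC6 by 0.06, and PSMC6 changed sign under quantile scaling. PSMC5 was listed at 0 in 5 libraries and at 89.0 FPKM in LY19Y646F replicate 3, where its row was merged with DDX42, a helicase gene. The sum of PSMC5 and DDX42 was 75.3, 93.8 and 89.0 FPKM in LY19Y646F and 75.2, 91.9 and 87.6 FPKM in LY19WT, a difference of 0.02 (limma adjusted p = 0.934) whose sign turned under both other scalings. In the 5 libraries that list PSMC5 at 0 this sum holds DDX42 alone, so it does not measure PSMC5. The sums of PSMC2 with PMPCB and of PSMC4 with ZNF546 differed by 0.50 and 0.46 (limma adjusted p of 0.0617 and 0.244), and the PSMC2 sum was called without LY19WT replicate 1 (adjusted p = 0.0359).

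Of the 14 PSMD genes, grouped here as non-ATPase subunits of the cap, 8 were tested, with differences between -0.66 and 0.74. Only PSMD12 was called. PSMD12, a lid subunit (hg19 chromosome 17, 65334032 to 65362743), was at 59.7, 73.1 and 76.4 FPKM in LY19Y646F and 37.9, 41.7 and 44.4 FPKM in LY19WT. The lines did not overlap, and PSMD12 rose by 0.74 (SE 0.13, limma adjusted p = 0.0102) in each alternative as well, with adjusted p up to 0.0415. PSMD14, the deubiquitinase of the lid, was at 92.9, 107 and 103 FPKM in LY19Y646F and 83.5, 78.0 and 86.3 FPKM in LY19WT, a difference of 0.29 (SE 0.09, limma adjusted p = 0.0719). PSMD4, a ubiquitin receptor, was at 220, 240 and 104 FPKM in LY19Y646F and 312, 269 and 263 FPKM in LY19WT, a difference of -0.66 (SE 0.34, limma adjusted p = 0.204). LY19Y646F replicate 3 stood far below the others, and without it the difference was -0.29 (limma adjusted p = 0.159). PSMD6 stood just outside the threshold, with a difference of 0.42 (SE 0.12, limma adjusted p = 0.0507). Without LY19Y646F replicate 1, PSMD6, PSMD10 and PSMD14 were called higher, with limma adjusted p of 0.0250, 0.0497 and 0.0279. The 6 PSMD genes that shared rows were read as sums. The sum of PSMD2 with EIF4G1, POLR2H and VWA5B2 was called higher, 0.45 with a limma adjusted p of 0.0444, and that call was lost whichever library was left out, with adjusted p of 0.0627 to 0.135. PSMD2 had a row of its own in 5 libraries, at 104 and 182 FPKM in LY19Y646F replicates 1 and 2. In LY19WT that row was at 119, 116 and 114 FPKM, so the rise of the sum was not a clear rise of the PSMD2 row. The authors' deposited table gave PSMD2 a log2 fold change of -0.02. The sums of PSMD3 with MSL1, PSMD8 with SPRED3 and PSMD11 with CDK5R1 differed by -0.08, 0.22 and 0.27 and were not called, and the first changed sign without LY19WT replicate 1. PSMD9 with WDR66 was at 62.0, 38.0 and 0 FPKM in LY19Y646F and 116, 116 and 99.8 FPKM in LY19WT, and was called lower only without LY19Y646F replicate 3, the library that lists it at 0 (-1.17, limma adjusted p = 0.0358). PSMD5 with C5 and PHF19 differed by -0.29 (limma adjusted p = 0.636), and by -0.76 without LY19Y646F replicate 1 (adjusted p = 0.0184). PSMD5 had a row of its own in 5 libraries, at 26.5 and 27.1 FPKM in LY19Y646F replicates 2 and 3. In LY19WT that row was at 9.44, 10.7 and 11.4 FPKM, so the fall of the sum was not a fall of the PSMD5 row.

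**Figure D3:**
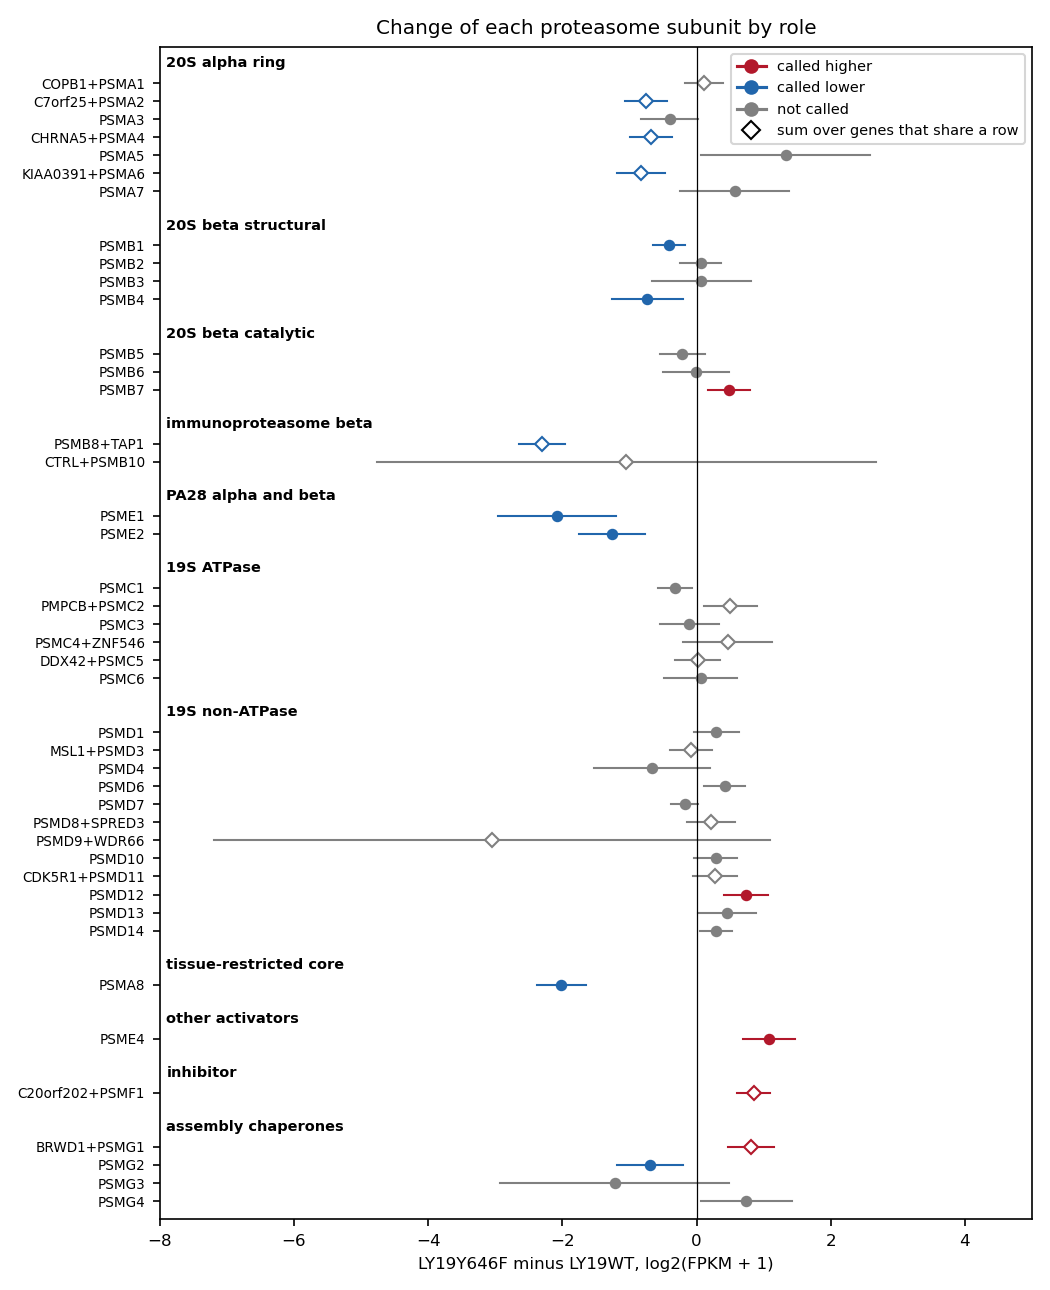
Difference of LY19Y646F minus LY19WT in log2(FPKM + 1) for each subunit by role, with bars for the 95% interval from limma over 3 libraries per line, filled circles for genes tested on their own, open diamonds for sums over genes that share a row, and colour for the call at an adjusted p under 0.05. PSMB9, PSMB11, PSME3 and the sums holding PSMD2 and PSMD5 are not drawn. The sum drawn for PSMC5 holds DDX42 alone in the 5 libraries that list PSMC5 at 0. PSME1, PSME2, PSMA8 and the PSMB8 and TAP1 sum lie lowest among the called values, and PSME4 lies highest.

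Outside the standard particle, PSMA8 fell and PSME4 rose. PSMA8, an alpha subunit known from the testis, was at 2.03, 2.30 and 1.96 FPKM in LY19Y646F and 11.5, 9.94 and 13.2 FPKM in LY19WT, the lowest levels of any tested subunit other than PSMB9. Its means were 2.10 ± 0.184 FPKM in LY19Y646F and 11.5 ± 1.63 FPKM in LY19WT (SD, n = 3 each), a ratio of 0.181, with a log2 difference of -2.01 (SE 0.15, limma adjusted p = 0.000400). PSMB11, the thymus-specific beta subunit, was listed at 0 in all 6 libraries. PSME4, the nuclear activator PA200, was at 40.1, 51.5 and 52.6 FPKM in LY19Y646F and 19.3, 23.0 and 23.9 FPKM in LY19WT. Its means were 48.1 ± 6.89 FPKM in LY19Y646F and 22.1 ± 2.48 FPKM in LY19WT (SD, n = 3 each), a ratio of 2.18, with a log2 difference of 1.08 (SE 0.15, limma adjusted p = 0.00449). For both PSMA8 and PSME4 the lines did not overlap and the call held under each alternative run. PSME3, the nuclear activator PA28 gamma, shared its row with AOC2 and other neighbours in all libraries and had a failed row in 1, so it was not tested. The row naming it reached 3527 FPKM in LY19Y646F replicate 1, where it took in RPL27, a ribosomal protein gene, against 126 and 132 FPKM in the other LY19Y646F libraries.

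PSMF1, the inhibitor PI31, was read as a sum with C20orf202 at 75.1, 68.6 and 67.2 FPKM in LY19Y646F and 41.3, 38.0 and 36.2 FPKM in LY19WT. The sum rose by 0.85 (SE 0.10, limma adjusted p = 0.00225), with no overlap. The assembly chaperones, which build the alpha ring, did not move together. PSMG1 summed with BRWD1 was at 262, 281 and 301 FPKM in LY19Y646F and 183, 136 and 163 FPKM in LY19WT, and rose by 0.81 (SE 0.14, limma adjusted p = 0.00832). PSMG2, its partner in the chaperone dimer, was at 128, 91.9 and 87.5 FPKM in LY19Y646F and 196, 149 and 150 FPKM in LY19WT, and fell by 0.69 (SE 0.20, limma adjusted p = 0.0474). The PSMG2 row also names, in all 6 libraries, a clone-based transcript that the annotation used here does not list as protein-coding. The lines did not overlap for PSMG1 or PSMG2. The PSMG2 call was lost when any library other than LY19Y646F replicate 1 was left out, with limma adjusted p of 0.0936 to 0.140, and also without the filter (0.0742) and with merged rows counted for every gene (0.0607). PSMG3 was at 56.3, 20.6 and 18.2 FPKM in LY19Y646F and 150, 48.1 and 39.4 FPKM in LY19WT, with the library numbered 1 far above the others in both lines and a difference of -1.22 (SE 0.68, limma adjusted p = 0.236). PSMG4 differed by 0.74 (SE 0.27, limma adjusted p = 0.0957), and by 0.45 without LY19Y646F replicate 1 (adjusted p = 0.0352).

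Over all 29 tested subunits, 3 rose, 6 fell and 20 were not called, which is 31.0%, close to the 32.4% of all tested genes. PSMB9, listed at 0 in 5 libraries, is counted here among those not called. The lines did not overlap for 18 of the 29, 9 higher and 9 lower, against 48.1% of all tested genes (24.2% higher and 23.8% lower). Without LY19Y646F replicate 1, 7 rose. Without LY19Y646F replicate 2, LY19WT replicate 2 or LY19WT replicate 3, 3 fell. Leaving PSMB9 aside, the library numbered 1 was the highest of its line for 13 of 28 subunits in LY19Y646F and 15 of 28 in LY19WT, and in both lines at once for 12 of 28 (42.9%, against 20.5% of all tested genes). PSMB3, PSMB4, PSMB6, PSME1 and PSMG3 are among the 12.

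The authors' deposited table of their own comparison holds 27 of the subunits, 21 of which were also tested here, and the sign was the same for 19 of those 21. The exceptions, PSMB6 and PSMC6, had log2 fold changes within 0.11 of 0 in both sources. All 5 subunits in that table that were called here had the same sign there. Of the inducible genes the authors' deposited table holds PSME2, with 142 FPKM in LY19Y646F and 432 FPKM in LY19WT and a log2 fold change of -1.61. PSMA8 had a log2 fold change of -2.68 in the authors' deposited table.

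Motif matches were counted over the 42 subunit promoters that RefSeq's table held, on both strands. The interferon-stimulated response element core was found in 6 of 42 (PSMA4, PSMB4, PSMB10, PSME1, PSME2 and PSMG4), against 3.65% of all 27305 promoters of the same length. Of the 4 tested on their own, PSMB4, PSME1 and PSME2 fell and PSMG4 was not called, while 16.1% of all tested genes fell. The PSMB4 call was lost in 8 of its 17 alternatives. TGACNNNGC, which NFE2L1 and its relatives bind with small MAF proteins, was found in 13 of 42, against 13.6% of all promoters, and its 8 tested holders split into 2 that rose (PSMD12 and PSME4), 3 that fell (PSME1, PSME2 and PSMG2) and 3 not called, against 16.3% higher and 16.1% lower among all tested genes. TTCNNNGAA was found in 5 of 42 against 7.88%, CCAAT, the NF-Y box, in 19 of 42 against 35.7%, and the core of an NF-kB site (GGG, 2 bases of any kind, then TTTCC) in 1 of 42 (PSMD6) against 1.92%. A TGACNNNGC match can lie beside or within another motif, and a match is only a description of letters.

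Genes that work with the proteasome were followed in 6 lists with 75 symbols, 46 of them tested, and 9 were called higher and 12 lower, against 16.3% higher and 16.1% lower of all tested genes. The 9 include IFNGR2, which was listed at 0 throughout LY19WT and is given no direction. Of 12 tested proteasome partners outside the naming rule, 6 rose, 2 fell and the median difference was 0.45, against -0.02 over all tested genes. That is 66.7% called, against 32.4% of all tested genes. Only 3 rose without LY19Y646F replicate 2, LY19Y646F replicate 3 or LY19WT replicate 2, and under quantile scaling. AKIRIN2, which brings proteasomes into the nucleus, was at 47.2, 53.3 and 45.5 FPKM in LY19Y646F and 18.4, 23.2 and 21.0 FPKM in LY19WT, a rise of 1.19 (limma adjusted p = 0.00162). SHFM1, the smallest lid subunit, was at 91.9, 118 and 118 FPKM in LY19Y646F and 246, 346 and 343 FPKM in LY19WT, and fell by 1.49 (limma adjusted p = 0.00289). TXNL1, a thioredoxin-like protein bound to the cap, rose by 0.47 (limma adjusted p = 0.00812), and UBQLN2, which shuttles ubiquitylated proteins, fell by 0.74 (limma adjusted p = 0.00289). The other 4 that rose, named after their values were seen, were UCHL5, KIAA0368, UBQLN1 and RAD23B.

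Of 9 tested genes of interferon control, 4 fell and IRF8 rose, against 16.1% lower and 16.3% higher of all tested genes. The median over the 9 was -1.55. IRF1, the transcription factor that drives the inducible subunits after interferon, was at 4.62, 3.67 and 3.03 FPKM in LY19Y646F and 32.1, 24.0 and 29.8 FPKM in LY19WT, and fell by 2.64 (SE 0.18, limma adjusted p = 0.000347). IFNGR1, a chain of the interferon-gamma receptor, was at 14.2, 16.1 and 17.9 FPKM in LY19Y646F and 80.9, 76.3 and 79.6 FPKM in LY19WT, and fell by 2.23 (limma adjusted p = 0.000109). For both genes the lines did not overlap. IFNGR2, the other chain, was at 27.5, 48.4 and 36.3 FPKM in LY19Y646F and listed at 0 in all 3 LY19WT libraries. The limma fit called it higher, but since a 0 is not read as absence neither a fold nor a direction is given. IRF8, a lineage regulator active in germinal-centre B cells and myeloid cells, was at 131, 207 and 249 FPKM in LY19Y646F and between 0.201 and 0.251 FPKM in LY19WT, a rise of 7.27 (limma adjusted p = 4.03e-05). The other 2 that fell, IRF2 (-1.55) and NLRC5 (-2.84), which activates class I genes, were named after their values were seen.

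In the class I list, 7 of 18 genes found could be tested and 2 fell, with a median of -0.64. That is 28.6% called, close to the 32.4% of all tested genes. B2M, which encodes beta-2 microglobulin, the invariant chain of class I, was at 2476, 2406 and 2296 FPKM in LY19Y646F and 3980, 3606 and 3583 FPKM in LY19WT, and fell by 0.64 (SE 0.08, limma adjusted p = 0.00242). TPP2, a peptidase that trims proteasome products, fell by 1.09 (limma adjusted p = 0.0259). That call was lost without LY19Y646F replicate 2 (0.0839) and without LY19WT replicates 1, 2 or 3 (0.0536, 0.0912 and 0.0816). HLA-E differed by -1.21 and LNPEP by 0.38 (limma adjusted p of 0.0608 and 0.0675), and HLA-E was called without LY19Y646F replicate 1 (adjusted p = 0.0217). TAP1 is given above with PSMB8.

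Among the transcription factors and activators of proteasome genes, 8 were tested, 1 rose and 2 fell (37.5% called, against 32.4% of all tested genes), with a median of -0.61. NFE2L1, which induces proteasome genes when proteasome activity is short, was at 25.5, 17.5 and 17.4 FPKM in LY19Y646F and 23.9, 17.9 and 18.1 FPKM in LY19WT, a difference of 0.00 (SE 0.21, limma adjusted p = 0.996) whose sign turned under both other scalings. STAT3 fell by 0.96 (limma adjusted p = 0.00267), the NF-Y chain NFYB fell by 0.79 (limma adjusted p = 0.00472) and NFYC rose by 1.48 (limma adjusted p = 0.0101), while MAFF differed by -0.43 (limma adjusted p = 0.320). Of 5 tested ubiquitin genes only UBB was called, again against 32.4% of all tested genes. It was lower, at 559, 562 and 537 FPKM in LY19Y646F and 1331, 1262 and 1169 FPKM in LY19WT, a difference of -1.18 (SE 0.08, limma adjusted p = 0.000275). UBA1 and UBA6 differed by -0.30 and -0.88 and were not called. Of 5 tested chaperone genes only BAG3 was called. It fell by 1.91 (limma adjusted p = 0.000997), while DNAJB1 (1.18, limma adjusted p = 0.0504), HSPA8 (0.58) and HSF1 (0.21) were not called. DNAJB1 was called without LY19WT replicate 1 (adjusted p = 0.0394).

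**Figure D4:**
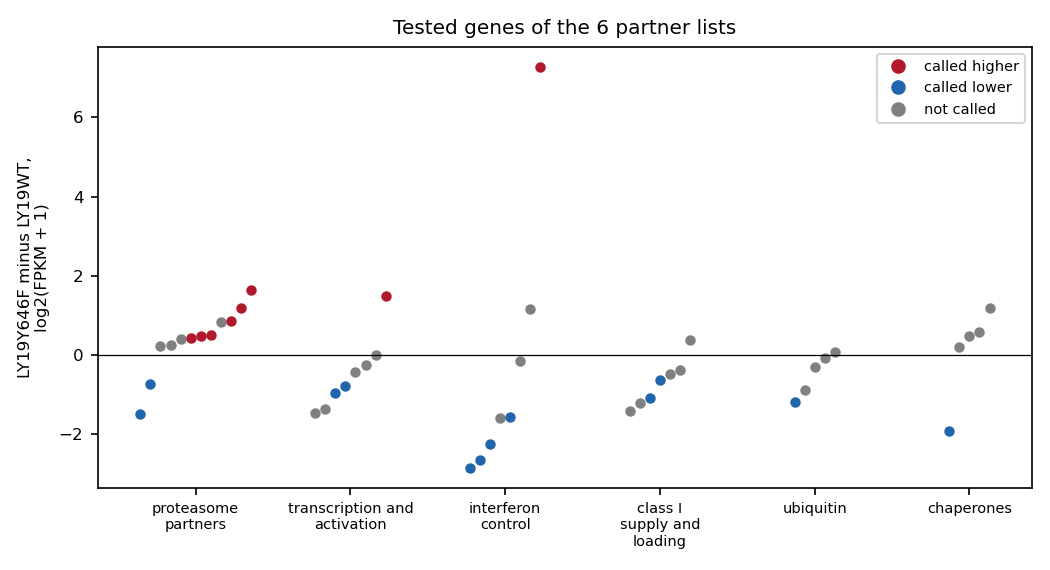
Difference of LY19Y646F minus LY19WT in log2(FPKM + 1) for the tested genes of the 6 partner lists, 1 point per gene in order of its value within the list, coloured by the limma call. IRF8 lies highest at 7.27 and NLRC5 lowest at -2.84; IFNGR2, listed at 0 in LY19WT, is not drawn.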

How the data were processed

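Polyadenylated RNA of 3 LY19Y646F and 3 LY19WT libraries was sequenced from single ends with a stranded kit, per the labels' protocols. Reads were aligned with STAR 2.5.3a and assembled and quantified with Cufflinks 2.2.1 and Cuffdiff 2.2.1 on hg19, per the submitters' processing notes. The authors deposited FPKM per gene for each library, with Cufflinks intervals and a status, per the file headers, and a table with mean FPKM per line and the authors' log2 fold change. FPKM is already scaled to the total and to length. Read totals per library and whether strand entered the counting are not given in the sources used here. The Cufflinks 95% half-width of the tested subunits' rows was 3.14% to 19.6% of the value, with a median of 4.56%, and covers estimation within a library only. Loci were assembled library by library, so a gene can be merged with neighbours in some libraries.

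Rows were joined by symbol. A gene was left out where its row in any library named another protein-coding gene (gene types from GENCODE v29) or had a failed status. Those averaging 0.5 FPKM or more across all 6 libraries went into limma 3.58.1 in R 4.3.3 on log2(FPKM + 1), LY19Y646F minus LY19WT, two-sided, with Benjamini-Hochberg adjustment over all 11574 and a threshold of 0.05. Changes on this scale understate those of low genes. Genes sharing rows were summed per locus and fitted likewise. On simulated data for this comparison, with 11574 genes, the fit recovered 35 of 100 changes of 2-fold and 76 of 100 of 4-fold, with 5 false calls among 116. These planted changes were few and lay in genes of higher level only, while 32.4% of genes were called in the data. The recovery rates therefore need not hold for the data, or for low genes such as PSMA8. Ratios used exact permutation tests in scipy 1.17.1. Coordinates are hg19 counted from 1, except the promoters. Of 30 proteasome pseudogene symbols, 8 were above 1 FPKM in some library, and reads they share with a subunit cannot be told apart. The members and lists were chosen with earlier results of these data known. Genes named in full were the inducible genes, their counterparts, every called member, the 2 members with the widest spread, up to 4 genes of each partner list with the smallest adjusted p, NFE2L1, IRF1 and TAP1. A few genes of the partner lists are not reported here.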

Additional observations from a re-analysis of the deposited data

How the results depend on the processing

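Of 187 alternative values for the counts and ratios, 156 kept their direction and stayed within 1.5 times the count. PSMA8, PSMD12, PSME1, PSME2, PSME4 and the PSMB8 and TAP1 sum kept their call in each alternative run for them. Library weights raised the calls to 3099 higher and 2954 lower among all genes, 11 higher among the members, and 9 higher and 4 lower among the constitutive subunits. Counting merged rows for every gene gave 5 higher members and 4 lower constitutive subunits. Locus sums, chosen after seeing the data like the sum of TAP1 with PSMB8 and the filter for genes above 0 in all libraries, gave 6 higher members, 4 lower constitutive subunits, and 15 higher and 19 lower partner genes. Restricting to genes alone in their row gave 1 lower inducible gene, since PSME1 then drops out, and 1 higher constitutive subunit. With no filter 1 constitutive subunit was higher and 1 lower, and with quantile scaling 1 was higher and 4 lower. Leaving out each library in turn gave 2 to 7 higher and 3 to 6 lower members, and 1 to 5 higher and 0 to 2 lower constitutive subunits. Except where the smaller sets of genes or libraries show it, the cause was not tested.

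Several differences turned sign. None of them was called, and before the change of setting all lay within 0.11 of 0 except CTRL with PSMB10. With quantile scaling PSMB2 became -0.057, PSMC6 -0.082, DDX42 with PSMC5 -0.11 and NFE2L1 -0.030. With median ratio scaling DDX42 with PSMC5 became -0.0059 and NFE2L1 -0.022. With library weights PSMB6 became 0.027, MSL1 with PSMD3 0.033 and NFE2L1 -0.050. Leaving out each library in turn gave -0.027 to 0.14 for PSMB2, -0.12 to 0.34 for PSMB3, -0.15 to 0.13 for PSMB6, -0.21 to 0.052 for PSMC3, -0.14 to 0.22 for PSMC6, -2.37 to 0.036 for CTRL with PSMB10, -0.065 to 0.11 for DDX42 with PSMC5, -0.17 to 0.013 for MSL1 with PSMD3 and -0.17 to 0.13 for NFE2L1.

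The main fit did not pair the samples by replicate number. The deviations of same-numbered libraries correlated at 0.242, 0.0663 and 0.111, and those of differently numbered libraries at -0.171 to 0.103. The highest of these values was for the libraries numbered 1. Whether those libraries shared a step between the lines was not tested. With the replicate number as a block, 4 members were higher and 7 lower, against 3 and 6 without it, and 1974 and 1999 of all genes. Under the block PSMB7 was not called (limma adjusted p = 0.0649), while PSMA7 (0.0459), PSMD1 (0.0410), PSMG3 (0.00777), the PSMC2 sum (0.0235), HLA-E (0.00915) and DNAJB1 (0.0165) were. The blocked ratio differences were -2.33 for PSMB8 to PSMB5 and -1.52 for PSMB10 to PSMB7, each with an exact sign-flip p of 0.25, the smallest that 3 pairs give. Taking ratios from the authors' table or from rows naming a single coding gene gave no value, because PSMB8, PSMB9 and PSMB10 are absent or merged there. Without absolute depth, no detection limit can be given for values listed at 0.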
